A study of Mus musculus with 2 samples.

Results

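The 10 genes described here are the classic transporter and junction genes of the barrier that central nervous system vessels form, taken as a list by name. The list was chosen with earlier results of these data known. All 10 were found among the 32285 features of both matrices. Of them, 7 encode transporters (Slco1a4, Slco1c1, Abcb1a, Abcg2, Slc2a1, Slc7a5 and Mfsd2a) and 3 encode tight junction proteins (Cldn5, Ocln and Tjp1). Their levels were measured in endothelial barcodes, defined as barcodes with at least 3 UMIs of Ptprb, Mecom, Adgrl4, Pecam1 and Emcn together, and in the other classes of nuclei, library by library. None of the 10 genes was used to choose the barcodes.

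The nuclei came from the spinal cords of male iNeuroD1GFP mice, injured at postnatal day 60 and given tamoxifen at 100 mg/kg/day on days 5 to 8 after the injury. The age label of both samples reads 8 weeks. Cords of 3 mice were taken on day 10 after injury and cut into an injury core and a distal region, and each region gave 1 library of nuclear RNA with 10x Genomics 3′ chemistry. The second region is called distal in the sample titles and peri-injury in the extraction protocol. Both regions carried the same transgene, injury and tamoxifen. No uninjured or untreated cord was analysed here, and neither the promoter that drives the transgene nor any pooling of the 3 mice is given in the sources used here. There were 16362 barcodes with 30469263 UMIs in the core library and 7452 barcodes with 19049572 UMIs in the distal one. With 1 library per region there is no replicate and no test, and every interval below is an exact 95% interval that covers counting error only, not differences between animals or dissections.

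Endothelial cells of brain and spinal cord vessels are sealed to each other by tight junctions, so that solutes have to pass through the cells instead of between them. Carriers in the cell membrane bring in glucose, amino acids, hormones and lipids, and ATP-driven pumps return lipophilic compounds to the blood. The same system in the spinal cord is known as the blood-spinal cord barrier, and injury is known to open it. Wnt signals from the surrounding tissue are known to maintain the gene programme behind it.

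The rule picked 94 of 16360 core barcodes (0.575%, 0.465 to 0.703) and 99 of 7443 distal barcodes (1.33%, 1.08 to 1.62). These barcodes fell into different kinds. In the core library 55 of the 94, and in the distal library 23 of the 99, held UMIs of Mecom and of none of the other 4 markers. Other endothelial genes that the rule does not use (Cdh5, Flt1, Kdr, Tek, Tie1, Erg and Egfl7 summed) stood at 29.6 CPM in the Mecom-only barcodes of the core library, close to the 20.4 CPM of its neurons, and at 65.8 CPM in those of the distal library, against 25.3 CPM in its neurons. In the barcodes with at least 2 different markers, 39 in the core library and 76 in the distal library, the same genes stood at 4589 and 1671 CPM. The summed neuronal transcripts Rbfox1 and Meg3 reached 101% of the neuron level in the core Mecom-only barcodes and 85.5% in the distal ones, and 51.7% and 41.9% in the barcodes with at least 2 markers. So genes outside the rule bore out the endothelial label for the barcodes with at least 2 markers and not for the core barcodes with Mecom alone. The distal Mecom-only barcodes stood above neurons but far below those with at least 2 markers. Whether some of them were endothelial nuclei was not tested. The barcodes with at least 2 markers were not free of other RNA: 19 of the 39 core and 42 of the 76 distal ones also passed the marker rule of another class, neurons included. Each result is therefore given for all barcodes of the rule and for the barcodes with at least 2 markers. The barcodes with at least 2 markers had medians of 1533 UMIs in the core and 1390 UMIs in the distal library, or 98063 and 243624 UMIs in all.

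The barrier genes followed the same division. Leaving out Tjp1, which nearly all classes held, at least 1 UMI of the other 9 genes was found in 38 of the 39 core barcodes with at least 2 markers (97.4%, 86.5 to 99.9) and in 71 of the 76 distal ones (93.4%, 85.3 to 97.8). Among Mecom-only barcodes it was found in 8 of 55 in the core library (14.5%, 6.50 to 26.7) and in 7 of 23 in the distal library (30.4%, 13.2 to 52.9), although these were deeper, with medians of 4156 and 5760 UMIs. The number of the 9 genes detected per barcode had a median of 3, 3, 6.5 and 8 in core barcodes with 2, 3, 4 and 5 different markers. The medians were 2, 2, 4 and 7 in distal barcodes with 2, 3, 4 and 5 markers. Depth differed along the same order, with medians of 1107.5 UMIs at 2 markers and 3490 UMIs at 5 in the core library, and of 1256 and 3535 UMIs at 2 and 5 markers in the distal library, and its part in the counts was not tested. Just inside the threshold, the 9 genes stood at 470 CPM in the 25 core barcodes with exactly 3 marker UMIs, and just outside it at 114 CPM in the 51 with 2. In the distal library they stood at 1038 CPM in the 21 barcodes with 3 marker UMIs and at 320 CPM in the 50 with 2. With 4 marker UMIs they stood at 663 CPM in 15 core barcodes and at 533 CPM in 13 distal ones. The distal level thus did not rise at every step.

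**Figure D1:**
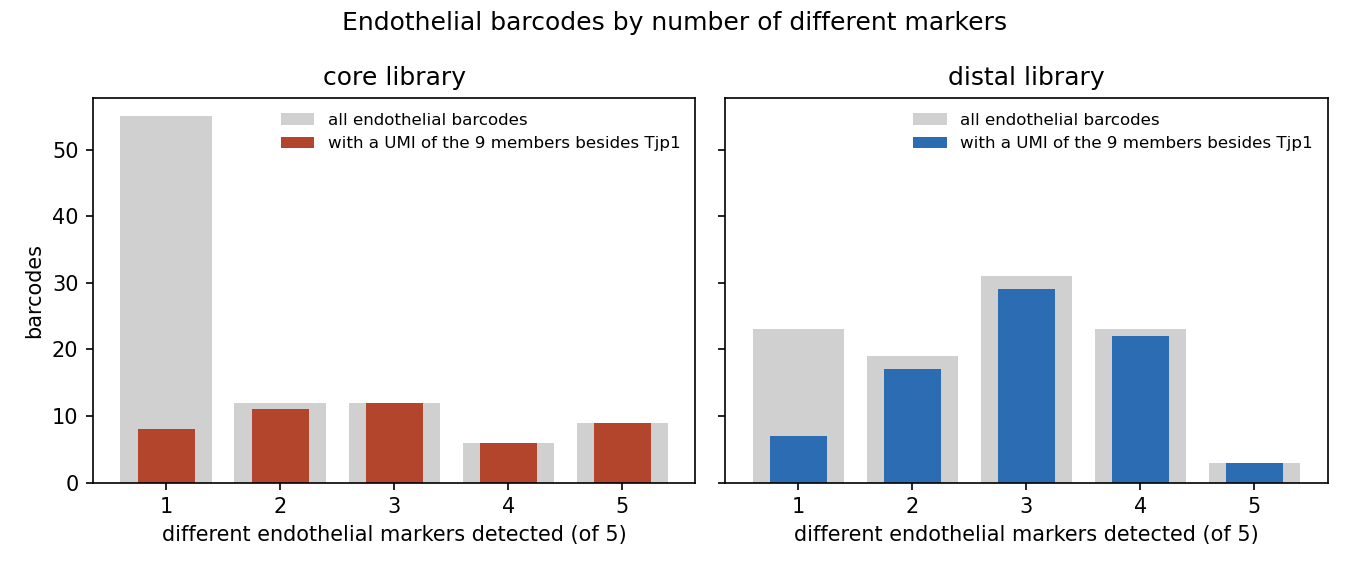
Number of endothelial barcodes (grey bars) by how many of the 5 markers they held, and how many of them had a UMI of the 9 barrier genes besides Tjp1 (coloured bars), in the core (left) and distal (right) libraries. The tall first grey bar of the core library is its 55 Mecom-only barcodes, of which 8 held a barrier gene UMI, and from 2 markers on nearly the whole grey bar is filled.

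Over all barcodes of the rule, 9 of the 10 genes were at least 2-fold higher in endothelial than in all other barcodes of the core library, where 13.5% of 18596 genes with at least 10 UMIs passed that fold. The same 9 of 10 passed it in the distal library, against 11.3% of 18538 genes. In the barcodes with at least 2 markers all 10 genes passed, against 18.8% of genes in the core and 14.2% in the distal library. The gene that did not pass over all barcodes of the rule was Tjp1, at 1.47-fold in the core and 1.67-fold in the distal library. In the Mecom-only barcodes 3 of the 10 genes passed in the core library, against 9.78% of genes, and 2 of 10 in the distal library, against 10.8% of genes, and each of these rested on 1 to 7 UMIs.

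Among the carriers of organic anions, Slco1a4 (GRCm38 chr6:141805440-141856199, minus strand), a broad organic anion and bile acid transporter of mouse vessels, stood at 2080 CPM (1805 to 2386) in core barcodes with at least 2 markers and at 2.26 CPM in all other core barcodes. In the distal library it stood at 837 CPM (726 to 960) in such barcodes, and at 6.55 CPM in all others. The endothelial barcodes of the rule held 75.6% of all Slco1a4 UMIs of the core library and 63.0% of those of the distal library, although they were 0.575% and 1.33% of the barcodes. Slco1c1 (chr6:141524368-141570177, plus strand), which carries thyroxine across the barrier, lies on the same chromosome. It stood at 1061 CPM (867 to 1285) in core barcodes with at least 2 markers and at 1.196 CPM in all others, and at 406 CPM (330 to 495) in distal ones and 4.30 CPM in all others. Neither library had a single Slco1c1 UMI in its Mecom-only barcodes, which allows up to 11.1 CPM in the core and 16.5 CPM in the distal library by the limit of 3 counts.

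The 2 ATP-driven efflux pumps were also higher in endothelial than in other barcodes. Abcb1a (chr5:8660077-8748575, plus strand) encodes a P-glycoprotein, the main drug efflux pump of rodent brain vessels. It stood at 551 CPM (414 to 719) in core barcodes with at least 2 markers, 360 times (239 to 546) the other core barcodes, and at 287 CPM (224 to 363) in distal ones, 58.1 times (42.0 to 80.2) the other distal barcodes. Its close copy Abcb1b, known as the form of other tissues, had 0 UMIs in core barcodes with at least 2 markers, which allows up to 30.6 CPM, and 4 UMIs in distal ones. Reads that fit both copies may have been split or dropped when they were counted, so the 2 levels are uncertain. Abcg2 (chr6:58584523-58695676, plus strand), the breast cancer resistance protein, stood at 581 CPM (440 to 753) in core barcodes with at least 2 markers and at 300 CPM (235 to 377) in distal ones. Its ratios over all other barcodes were smaller, at 73.5 (54.1 to 98.5) in the core and 13.6 (10.5 to 17.5) in the distal library, and 19.3% of its core UMIs and 15.5% of its distal UMIs lay in endothelial barcodes.

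The remaining 3 transporters carry nutrients. Slc2a1 (chr4:119108711-119137983, plus strand), the glucose transporter of the barrier, stood at 357 CPM (249 to 496) in core barcodes with at least 2 markers, against 5.08 CPM in all other core barcodes, and at 201 CPM (149 to 266) in distal ones, against 14.6 CPM in all other distal barcodes. Slc2a3, the neuronal glucose transporter, was lower there than in neurons, though on few UMIs. In core barcodes with at least 2 markers it had 2 UMIs, or 20.4 CPM (2.47 to 73.7). Core neurons stood at 87.1 CPM and all other core barcodes at 85.6 CPM. In distal barcodes with at least 2 markers it had 6 UMIs, or 24.6 CPM (9.04 to 53.6). Distal neurons stood at 62.2 CPM, but all other distal barcodes at 37.4 CPM, inside that interval. Slc7a5 (chr8:121881150-121907694, minus strand), the light chain of the carrier of large neutral amino acids, stood at 255 CPM (165 to 376) in core barcodes with at least 2 markers and at 140 CPM (96.6 to 195) in distal ones, 41.7 and 27.9 times the other barcodes. Mfsd2a (chr4:122946850-122961188, minus strand), which takes up lysophospholipids that carry polyunsaturated fatty acids and is known to hold transcytosis down, had few UMIs. It had 9 UMIs in core barcodes with at least 2 markers, or 91.8 CPM (42.0 to 174), and 5 in distal ones, or 20.5 CPM (6.66 to 47.9).

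Among the junction genes, Cldn5 (chr16:18776847-18778262, plus strand) encodes the main claudin of the barrier. It had 65 UMIs in core barcodes with at least 2 markers, or 663 CPM (512 to 845), and 20 in all 16266 other core barcodes, or 0.664 CPM, a ratio of 998 (597 to 1739). In the distal library it had 46 UMIs, or 189 CPM (138 to 252), and 42 in all others, or 2.26 CPM, a ratio of 83.7 (53.9 to 130). Ocln (chr13:100496507-100552718, minus strand), the transmembrane protein occludin, stood at 224 CPM (141 to 340) in core barcodes with at least 2 markers and at 78.0 CPM (47.0 to 122) in distal ones, 130 and 18.4 times the other barcodes. Tjp1 (chr7:65296165-65527781, minus strand) encodes the cytoplasmic scaffold ZO-1, which links junctions to actin in many cell types. It stood at 1346 CPM (1126 to 1596) in core barcodes with at least 2 markers and 508 CPM in all other core barcodes, and at 989 CPM (868 to 1122) in distal ones and 464 CPM in all other distal barcodes. Only 1.77% of its core UMIs and 3.68% of its distal UMIs lay in endothelial barcodes, the smallest shares of the 10 genes.

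**Figure D2:**
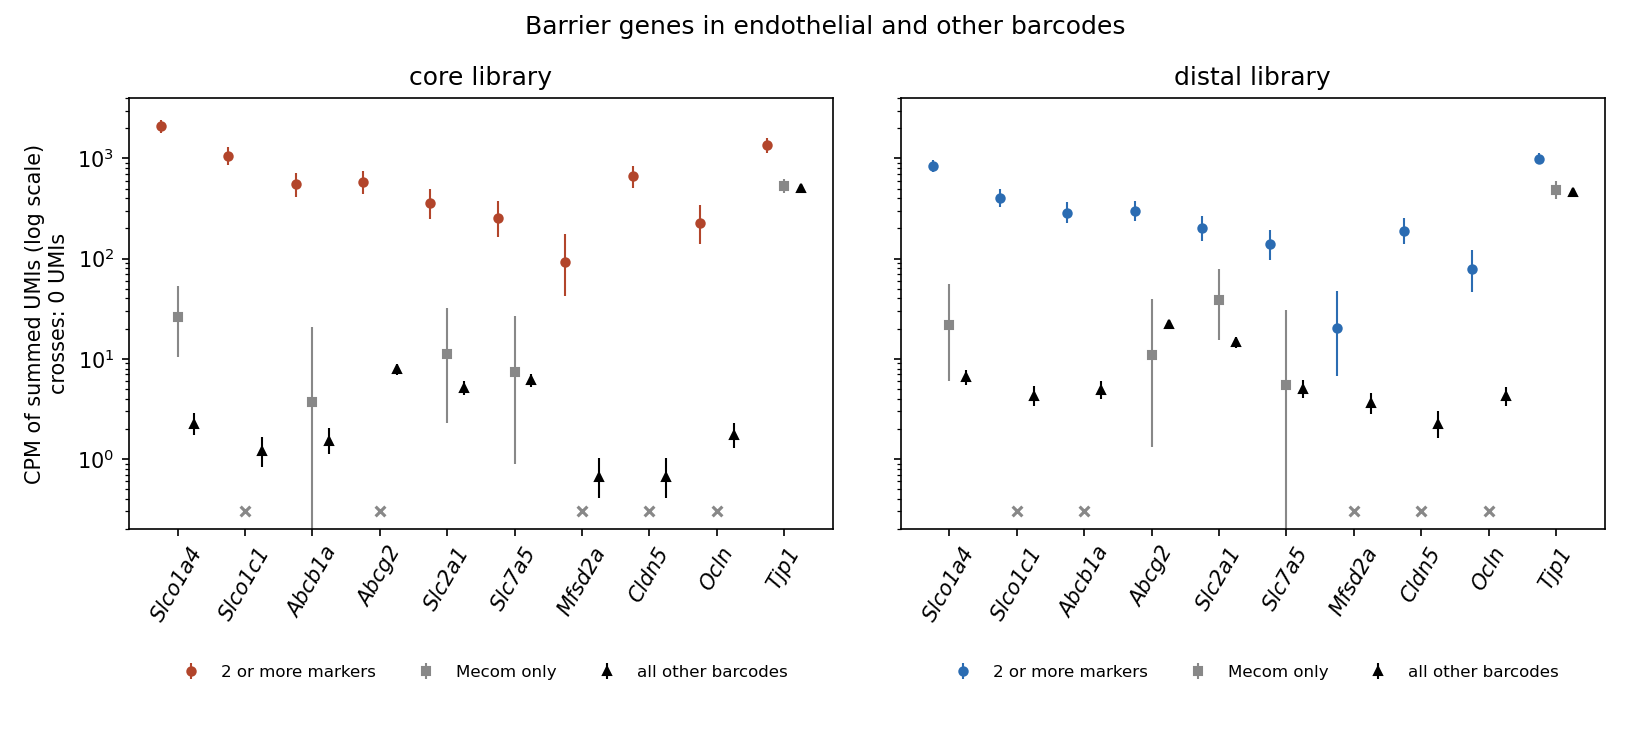
CPM of the 10 genes on a log axis, with exact 95% Poisson intervals as bars, in barcodes with at least 2 different endothelial markers (circles), Mecom-only barcodes (squares) and all other barcodes (triangles) of the core (left) and distal (right) libraries, with crosses for a count of 0. The circles stand apart from both other sets for the 9 genes besides Tjp1, except that the interval of distal Mfsd2a (6.66 to 47.9 CPM) overlaps the upper limit of its Mecom-only barcodes (20.2 CPM), and for Tjp1 all 3 sets lie between 464 and 1346 CPM.

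Shares of barcodes with a UMI gave the same picture for Slco1a4 when set beside oligodendrocytes. That class did not lack all of the barrier genes. Slc2a1 was detected in 4.70% of distal oligodendrocytes, against 34.2% of distal barcodes with at least 2 markers. Tjp1 was detected in 55.4% of distal oligodendrocytes, against 78.9% of distal barcodes with at least 2 markers. Slco1a4 was detected in 36 of the 39 core barcodes with at least 2 markers (92.3%, 79.1 to 98.4) and in 50 of the 76 distal ones (65.8%, 54.0 to 76.3). It was detected in 0 of 334 core oligodendrocytes, which allows a share of up to 0.898% by the limit of 3 counts, and in 34 of 2936 distal oligodendrocytes (1.16%, 0.803 to 1.61), with median depths of 1337 and 1691.5 UMIs. Thinned to 1000 UMIs per barcode, which left 36 core and 60 distal barcodes with at least 2 markers, the Slco1a4 shares were 80.6% (64.0 to 91.8) and 51.7% (38.4 to 64.8). The thinned shares were 61.1% in the core and 41.7% in the distal library for Slco1c1, 47.2% and 21.7% for Cldn5, 50.0% and 33.3% for Abcg2, and 38.9% and 40% for Abcb1a. Of the barcodes with at least 2 markers, 35 of 39 in the core and 59 of 76 in the distal library held at least 2 of the 9 genes, which 0.215% of other core barcodes and 1.53% of other distal barcodes did.

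The bases before the start site are shown for 5 genes, those whose UMIs lay mostly or largely in endothelial barcodes (Slco1a4, Slco1c1, Abcb1a and Cldn5) and, for contrast, Tjp1, which all classes held. They are the 250 bases before the start in RefSeq on GRCm38.p6, read 5′ to 3′ on the gene's strand, and capitals mark matches on either strand to AGGAAG (an ETS core), CTTTGA (a TCF/LEF core) or ACAAAG (a SOX core), families known in endothelial cells.
Slco1a4, chr6:141856221-141856470, minus strand: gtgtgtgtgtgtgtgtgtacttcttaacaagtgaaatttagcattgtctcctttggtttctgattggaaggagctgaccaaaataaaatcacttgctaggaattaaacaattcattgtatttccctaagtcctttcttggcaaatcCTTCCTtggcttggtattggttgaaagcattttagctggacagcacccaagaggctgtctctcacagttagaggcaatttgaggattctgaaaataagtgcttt
Slco1c1, chr6:141524104-141524353, plus strand: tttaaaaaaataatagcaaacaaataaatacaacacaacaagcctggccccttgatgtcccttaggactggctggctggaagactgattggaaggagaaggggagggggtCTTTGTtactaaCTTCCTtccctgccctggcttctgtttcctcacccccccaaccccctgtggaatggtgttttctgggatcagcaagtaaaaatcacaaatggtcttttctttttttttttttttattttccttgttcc
Abcb1a, chr5:8566841-8567090, plus strand: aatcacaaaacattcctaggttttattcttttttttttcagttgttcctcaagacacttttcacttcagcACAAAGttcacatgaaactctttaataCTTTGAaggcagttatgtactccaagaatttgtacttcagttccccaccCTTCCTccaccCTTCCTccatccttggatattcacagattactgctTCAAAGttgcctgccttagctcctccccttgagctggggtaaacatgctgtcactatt
Cldn5, chr16:18776597-18776846, plus strand: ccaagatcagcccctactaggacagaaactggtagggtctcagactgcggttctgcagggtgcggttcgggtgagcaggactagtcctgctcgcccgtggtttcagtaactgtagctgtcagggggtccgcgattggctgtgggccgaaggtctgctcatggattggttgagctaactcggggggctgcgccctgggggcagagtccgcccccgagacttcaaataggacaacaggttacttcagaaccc
Tjp1, chr7:65371245-65371494, minus strand: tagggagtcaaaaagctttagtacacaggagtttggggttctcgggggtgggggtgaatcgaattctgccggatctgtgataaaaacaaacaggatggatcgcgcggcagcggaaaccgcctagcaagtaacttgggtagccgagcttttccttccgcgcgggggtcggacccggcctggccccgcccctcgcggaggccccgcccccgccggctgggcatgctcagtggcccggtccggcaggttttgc
Promoters of 9 of the 10 genes (all but Slc7a5) matched the RefSeq table, with 12 start sites in all. The ETS letters occurred in 6 of the 12 windows, 3 of them of Abcg2 and 1 each of Slco1a4, Slco1c1 and Abcb1a, and in 29.5% of all 32851 promoters of the table. The TCF/LEF letters occurred in 2 of the 12 (Abcb1a and Mfsd2a), against 13.8% of all promoters, and the SOX letters in 2 of the 12 (Slco1c1 and Abcb1a), against 16.5%. These are matches of letters, and none of the 3 was found in the windows of Cldn5, Tjp1, Slc2a1 and Ocln. The Abcb1a start in RefSeq lies upstream of the gene span given above from GENCODE, and the Tjp1 start lies inside its span, so neither window adjoins the end of the span.

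The distal library held enough nuclei of other classes to place the genes among them. Classes were set by marker genes, and 9 besides the endothelial barcodes had at least 20 barcodes and passed the check on neuronal RNA. The core library gave 2, neurons (11597 barcodes) and oligodendrocytes (334). In the core library the barcodes with at least 2 endothelial markers were highest for all 10 genes, with intervals of the ratio to the next class that excluded 1. In the distal library they were highest for all 10 too, but for Mfsd2a and Ocln the interval of the ratio to the next class included 1. Of the later neighbours in the order of levels, 77 of the 80 pairs over the 10 genes were not separated by their intervals. The 3 separated pairs were Abcb1a in oligodendrocytes over neurons (2.24, 1.13 to 4.86), Mfsd2a in OPCs over astrocytes (3.20, 1.04 to 13.1) and Mfsd2a in oligodendrocytes over neurons (2.53, 1.01 to 7.57), where OPCs are oligodendrocyte progenitors. Genes held out for mural cells (Atp13a5 and Ebf1 summed) stood at 2118 CPM in the 24 barcodes with mural markers and at 2448 CPM in neurons, so they did not bear out that name, and the 27 barcodes with erythroid markers had no held-out genes.

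Set against distal neurons, 22 of 80 pairs of a gene and one of the 8 other classes were higher with an interval above 1, and 1 pair, Tjp1 in OPCs (0.878, 0.780 to 0.986), was lower. The share of all genes above neurons in these classes was not worked out, so the 22 are not read as a trait of the barrier genes. Of the 22, 13 rested on at least 10 UMIs of the class and 9 on 2 to 7. Slco1c1 stood at 33.6 CPM (21.3 to 50.3) in distal astrocytes, from 23 UMIs in 23 of 330 barcodes, which is 34.8 times (11.9 to 138) the 0.964 CPM of distal neurons, and it was 12.1 times (7.63 to 19.98) higher again in the barcodes with at least 2 endothelial markers. Mfsd2a stood at 18.7 CPM (10.9 to 29.9) in distal OPCs, from 17 UMIs, 12.9 times (4.86 to 40.004) the neuron level. The level of Mfsd2a in the distal endothelial barcodes, 20.5 CPM, was 1.10 times (0.317 to 3.10) that of the OPCs, so a difference was not detectable at this depth. Only 6.94% of the Mfsd2a UMIs of the distal library, 5 of 72, lay in endothelial barcodes, against 9 of 29 in the core library.

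Slc2a1 stood at 22.1 CPM in distal oligodendrocytes, 3.99 times (2.56 to 6.49) the neuron level, at 21.9 CPM in distal astrocytes, 3.95 times (1.91 to 7.90) that level, and at 17.6 CPM in distal myeloid barcodes, 3.17 times (1.83 to 5.61) that level. In the core library the oligodendrocyte level of Slc2a1 was 3.46 times (1.46 to 7.096) that of neurons. Slc2a1 was not alone in this: Slco1a4 and Slco1c1 in distal oligodendrocytes were 4.19 (1.98 to 10.2) and 3.95 (1.37 to 15.6) times the neuron level. Slco1a4 in myeloid barcodes was 2.79 times (1.02 to 7.98) that level, and Tjp1 in oligodendrocytes 1.25 times (1.18 to 1.32). The 53 Slco1a4 UMIs of distal oligodendrocytes lay in 34 of 2936 barcodes, with up to 6 in 1 barcode. Outside the endothelial set, 22 distal barcodes held at least 3 of the 9 genes besides Tjp1. Of these 22, 10 were oligodendrocytes and 6 myeloid, and 14 had a UMI of a rule marker. The part of endothelial RNA in these levels was not tested. Abcg2 was 2.22 times (1.45 to 3.35) the neuron level in distal OPCs and 2.13 times (1.30 to 3.36) in astrocytes. In the 65 distal fibroblasts Slco1a4 and Abcb1a had 4 UMIs each, or 32.6 CPM, which is 16.9 (3.72 to 63.1) and 12.3 (2.85 to 41.5) times the neuron level. Abcg2 with 7 UMIs and Ocln with 3 were also above neurons in fibroblasts, as were Slco1c1 in barcodes with mural markers and Slc2a1 and Cldn5 in those with erythroid markers, on 2 to 4 UMIs each. Slco1a4 and Ocln each had 5 UMIs in the 68 distal barcodes with hepatocyte markers, or 40.4 CPM, where Slco1b2, a liver relative of the Slco1 genes, had 21 UMIs and stood at 170 CPM. Ocln in the distal endothelial barcodes was 1.93 times (0.697 to 6.62) that level. Cldn5 had 0 UMIs in distal astrocytes, which allows up to 4.38 CPM, and 0 in fibroblasts and in barcodes with mural or hepatocyte markers, which allows up to 21.3 to 24.4 CPM there. In the distal library its 42 UMIs outside the endothelial barcodes lay in 38 barcodes, 16 of them oligodendrocytes, a class that made up 39.4% of all distal barcodes.

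**Figure D3:**
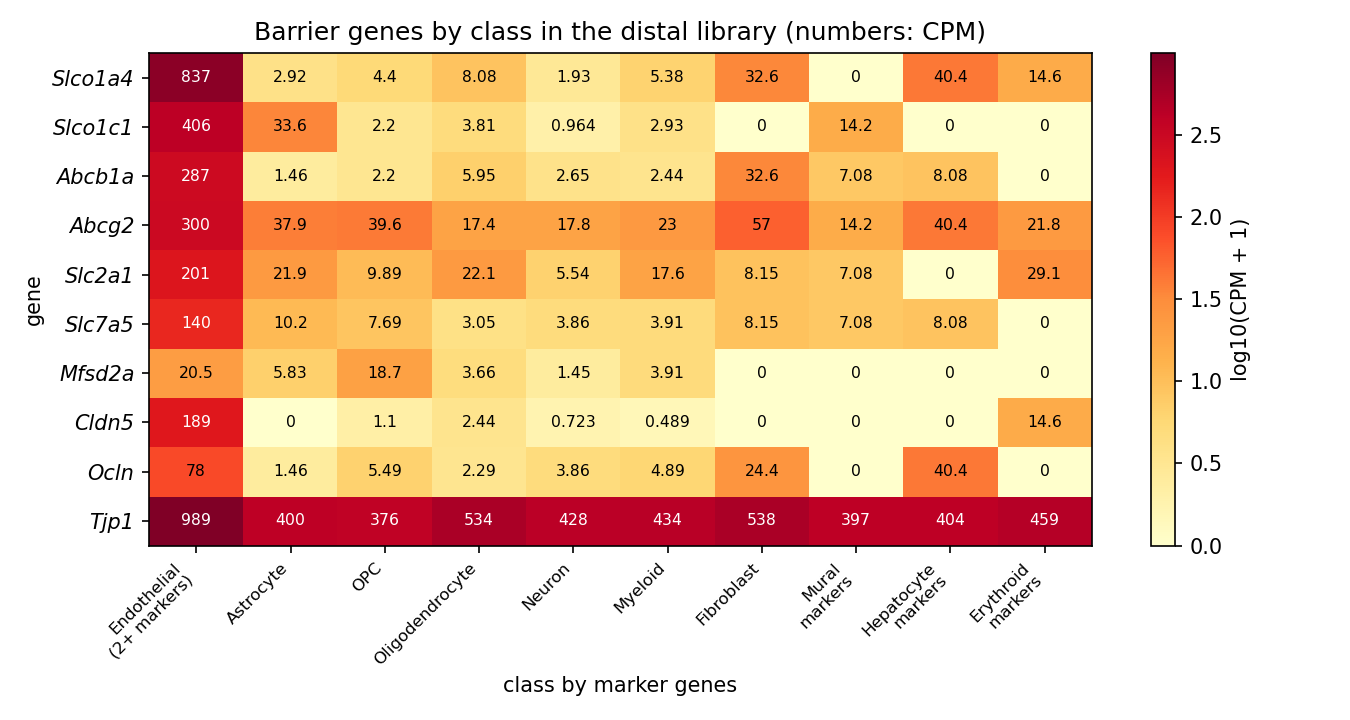
CPM of the 10 genes (rows) in 10 classes of the distal library (columns), coloured by log10 of CPM plus 1 and with the CPM printed in each cell. The first column, barcodes with at least 2 endothelial markers, is the darkest in every row, and the Tjp1 row is dark throughout. Cells that stand out from their rows include Slco1c1 in astrocytes (33.6 CPM) and Mfsd2a in OPCs (18.7 CPM). On 3 to 5 UMIs each, so do Abcb1a in fibroblasts, and Slco1a4 and Ocln in fibroblasts and in barcodes with hepatocyte markers.

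Between the regions the answer depended on which endothelial barcodes were counted. Over all barcodes of the rule, 1 of the 10 genes was at least 2-fold higher in core than in distal endothelial barcodes and 0 were at least 2-fold lower, where 7.45% of 9196 genes were that much higher and 13.7% that much lower. The median log2 ratio was 0.09 over the 10 genes and -0.02 over all genes. Slco1a4 stood at 573 CPM in core and 488 CPM in distal endothelial barcodes, a ratio of 1.17 (0.965 to 1.43). Slc2a1 stood at 103 CPM in core and 131 CPM in distal ones, a ratio of 0.785 (0.506 to 1.21). Only the interval of Cldn5, at 177 CPM in core and 108 CPM in distal barcodes, excluded 1, with a ratio of 1.63 (1.10 to 2.44). The gene past 2-fold was Mfsd2a, at 2.08 (0.627 to 7.91), which rested on 9 core and 5 distal UMIs. The direction also changed with the treatment of each barcode's UMIs. With the mean of each barcode's CPM, 8 of the 10 ratios were below 1 (median 0.698, Slco1a4 0.835). After thinning to 1000 UMIs, 7 of 10 were below 1 (median 0.806, Slco1a4 0.812). Fewer barcodes passed the rule after thinning, so that setting changed the set of barcodes as well as their weight.

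In the barcodes with at least 2 markers, which leaves out the Mecom-only barcodes that were 55 of 94 in the core and 23 of 99 in the distal library, all 10 ratios were above 1 and 5 of the 10 genes were at least 2-fold higher in core, while 0 were at least 2-fold lower. Over all 6247 genes with at least 10 UMIs there, 11.8% were that much higher and 17.6% that much lower. The transporters Slco1a4, at 2080 CPM in core and 837 CPM in distal barcodes, and Slco1c1, at 1061 and 406 CPM in core and distal, had ratios of 2.48 (2.04 to 3.03) and 2.61 (1.96 to 3.47). The junction genes Cldn5 and Ocln had ratios of 3.51 (2.37 to 5.24) and 2.88 (1.49 to 5.62), and Mfsd2a had 4.47 (1.35 to 17.0). Abcb1a, Abcg2, Slc2a1 and Slc7a5 lay between 1.77 and 1.94, each with an interval above 1, and Tjp1 was lowest of the 10 at 1.36 (1.09 to 1.69). The median log2 ratio of the 10 genes was 1.14, against 0.07 over all genes.

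The same barcodes differed by region in more than the barrier genes. The summed level of 12 other endothelial genes that the rule does not use was 6159 CPM in core and 2397 CPM in distal barcodes, a ratio of 2.57 (2.29 to 2.88), against 2.09 (1.89 to 2.31) for the summed barrier genes. Flt1 alone, with a ratio of 3.13 (2.65 to 3.70), gave 325 of the 604 core and 258 of the 584 distal UMIs of these 12 genes. The 12 did not all go the same way. At least 2-fold higher in core were 9 of them, against 11.8% of all genes, and 2 passed neither fold. Vwf, at 0.456 (0.197 to 0.939), was the 1 that was at least 2-fold lower, against 17.6% of all genes. Tjp1, with a ratio of 1.36, gave 132 of the 707 core and 241 of the 840 distal UMIs of the barrier genes. Held-out oligodendrocyte genes (Ermn, Fa2h, Prr5l and Mbp summed) stood at 265 CPM in core and 3050 CPM in distal barcodes, and Rbfox1 with Meg3 at 12400 and 7298 CPM in core and distal. Mural cell markers (Rgs5, Abcc9, Notch3, Pdgfrb and Kcnj8 summed) stood at 530 CPM in core and 172 CPM in distal barcodes. Scaled to the 12 other endothelial genes, 4 of the barrier genes had a ratio above 1 and 6 below it, with a median of 0.861 and 0 past 2-fold in either direction. This scaling rests largely on Flt1, and a scaling without it was not run. With the mean of each barcode's CPM instead of the CPM of summed UMIs, 5 ratios were above 1 and 5 below it, with a median of 1.12, and Cldn5 (2.39) and Mfsd2a (2.42) were past 2-fold. In the 20 core and 34 distal barcodes that passed no other class's marker rule, all 10 ratios were above 1 with a median of 1.71, and among genes with at least 10 UMIs only Cldn5 (3.01) was past 2-fold, while Slco1a4 was at 1.83. Beyond these alternatives, the part of RNA from other nuclei in the ratios was not tested.

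**Figure D4:**
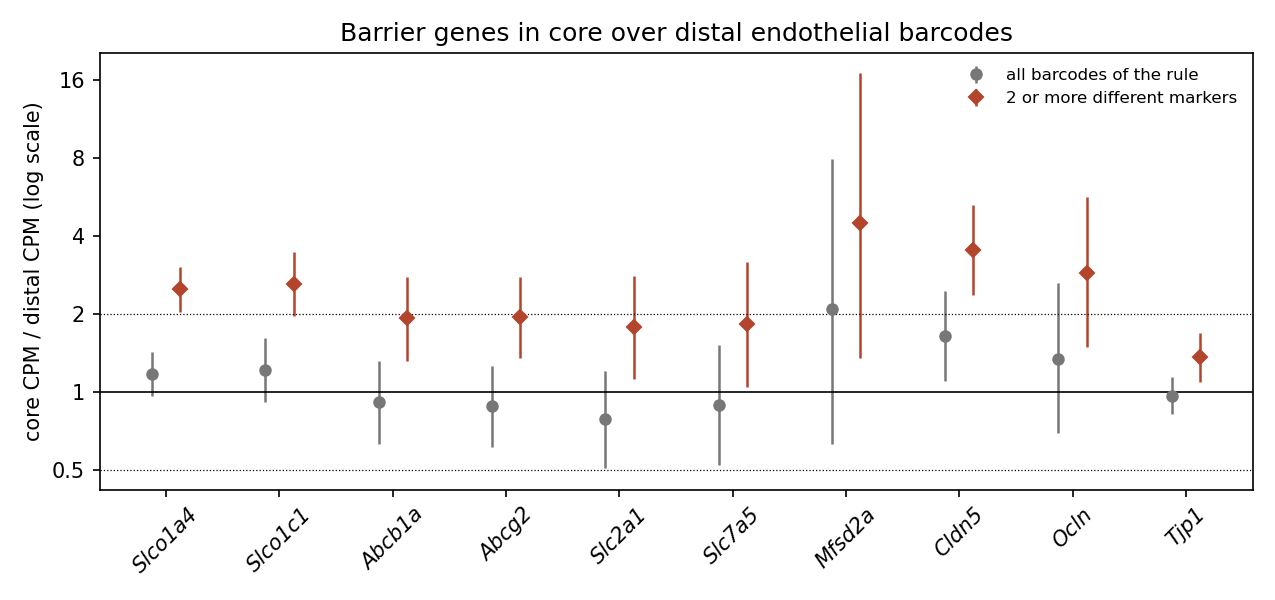
Ratio of core to distal CPM for the 10 genes on a log axis, with exact 95% conditional intervals as bars, over all barcodes of the rule (grey circles) and over barcodes with at least 2 different markers (red diamonds). Dotted lines mark 2-fold, the grey circles scatter around 1 and the diamonds lie between 1.36 and 4.47.

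The other genes of the barrier are described for the barcodes with at least 2 markers, where, as given above, 18.8% of all genes in the core and 14.2% in the distal library were at least 2-fold above all other barcodes, and 11.8% were at least 2-fold higher and 17.6% lower in core than in distal barcodes. Of 22 other transporters and receptors, 17 were at least 2-fold higher there than in all other barcodes in each library, of 21 measured in the core and 22 in the distal library. Between the regions 11 of the 18 with at least 10 UMIs were at least 2-fold higher in core and 0 lower, with a median log2 ratio of 1.25. Tfrc, the transferrin receptor, stood at 408 CPM in core and 65.7 CPM in distal barcodes, a ratio of 6.21 (3.40 to 11.9), and Slc3a2, the heavy chain that pairs with Slc7a5, had a ratio of 4.42 (1.84 to 11.3). Abcc4, an efflux pump of organic anions, had 1.52 (1.07 to 2.15), and Insr, the insulin receptor, had 1.52 (1.08 to 2.12). Of 13 other junction genes, 10 in the core and 6 in the distal library were at least 2-fold above all other barcodes. Between the regions 4 of 10 were higher in core and 1 lower. Cdh5, the cadherin of endothelial adherens junctions, rested on 9 core and 4 distal UMIs, while the polarity and scaffold genes Pard3 and Magi1 had ratios of 1.16 (0.873 to 1.53) and 1.004 (0.783 to 1.28).

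In the list of transcytosis and fenestration, 2 of 3 genes with at least 10 UMIs were at least 2-fold higher in core. Cav1, the coat protein of caveolae, stood at 204 CPM in core and 41.0 CPM in distal barcodes, a ratio of 4.97 (2.22 to 11.9). Cavin1, its coat partner, had a ratio of 4.07 (1.82 to 9.53). Plvap, the protein of fenestral diaphragms, which the mature barrier is known to lack and which was singled out after its values were seen, had 2 UMIs in core and 0 in distal barcodes, and 3 and 2 UMIs in core and distal over all barcodes of the rule. Of the Wnt and barrier programme, 11 of 13 measured genes in the core and 11 of 15 in the distal library were at least 2-fold above all other barcodes, and 7 of the 11 with at least 10 UMIs were at least 2-fold higher in core and 0 lower. Lef1, a transcription factor of the Wnt pathway, stood at 1244 CPM in core and 349 CPM in distal barcodes, a ratio of 3.57 (2.68 to 4.76). Apcdd1, a Wnt inhibitor that Wnt signals induce, had a ratio of 4.79 (2.43 to 9.89), and the Wnt coreceptor Lrp6 had 1.06 (0.540 to 2.001).

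The remaining lists had few UMIs. Leukocyte adhesion genes summed to 2 core and 10 distal UMIs, arterial genes to 9 and 19 in core and distal, and sprouting genes to 2 and 13 in core and distal, so no difference was detectable at this depth. Venous genes summed to 173 CPM in core and 271 CPM in distal barcodes, a ratio of 0.640 (0.352 to 1.10), and over all barcodes of the rule the ratio was 0.306 (0.171 to 0.521). Most of the venous UMIs were of Vwf, a clotting protein of endothelial cells, with 9 in core and 49 in distal barcodes, a ratio of 0.456 (0.197 to 0.939). The paralogs of the barrier genes, such as Abcb1b and Slc2a3, summed to 61.2 CPM in core and 65.7 CPM in distal barcodes.

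**Figure D5:**
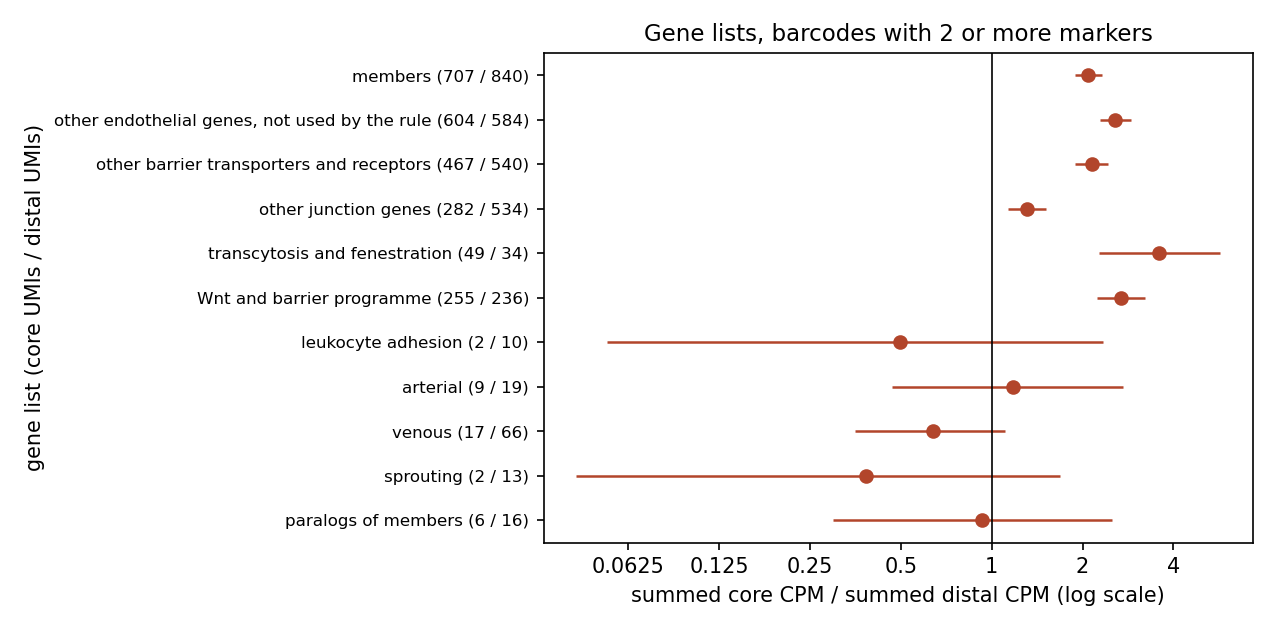
Ratio of summed core to summed distal CPM for the barrier genes (members) and 10 other gene lists, on a log axis with exact 95% conditional intervals as bars, in barcodes with at least 2 different markers, with the UMIs of each list in parentheses. The barrier genes (2.09) lie near the other endothelial genes (2.57), and the lists of leukocyte adhesion, arterial, venous, sprouting and paralog genes have intervals that include 1.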

How the data were processed

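Single-nucleus RNA was counted per gene and barcode, and the deposited files hold raw UMI counts written by Cell Ranger 7.1.0, per the file headers. Seurat and the builds mm10 and GRCh38 appear in the submitters' processing notes as well. No source used here gives the annotation, and positions come from GENCODE M21 (GRCm38), which holds 99.8% of the 32285 feature identifiers. A barcode was left out when it had fewer than 300 genes or more than 5% of UMIs from mitochondrial genes, which was so for 2 core and 9 distal barcodes. Doublets were not called and were left in. The lowest UMI total was 500 in both libraries, and the libraries shared 38 barcode sequences, 0 of them among core and 3 among distal endothelial barcodes.

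UMIs were summed per class and library and divided by the class total to give CPM. CPM carry exact Poisson 95% intervals, shares Clopper-Pearson intervals and ratios exact conditional intervals. A count of 0 was given the limit of 3 counts. A ratio was counted as higher or lower from 2-fold on, among genes with at least 10 UMIs. Levels are not compared between genes. Non-endothelial barcodes took the class whose markers made up the highest multiple of the mean share of both libraries. That took at least 3 marker UMIs, 2 different markers and a multiple of at least 3, or 1.5 for oligodendrocytes and 1 for neurons. Classes with fewer than 20 barcodes, or with Rbfox1 and Meg3 at 75% or more of the neuron level, were not reported. That class rule and the held-out genes were chosen after seeing the data. Thinning drew 1000 UMIs per barcode. Analyses used Python 3.11.15, numpy 2.4.6, scipy 1.17.1, pandas 2.3.3, matplotlib 3.10.9 and, for TMM factors, edgeR 4.0.16 in R 4.3.3.

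The 10 genes and the lists were chosen with earlier results of these data known. All 10 are described. Of each other list at most 3 genes are named, those with the most endothelial UMIs, plus at most 2 per direction with the largest ratio among those with at least 10 endothelial UMIs. The alternatives were other UMI minimums and marker sets for the rule, at least 2 different markers, 500 genes, thinning, means over barcodes, other folds and other scalings.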

Additional observations from a re-analysis of the deposited data

How the results depend on the processing

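The number of endothelial barcodes followed the rule closely. It was 145 in the core and 149 in the distal library with at least 2 marker UMIs, 54 and 65 with at least 5, 23 and 49 without Mecom, 45 and 42 after thinning to 1000 UMIs, and 39 core barcodes with at least 2 different markers. With at least 2 different markers, 20 core and 34 distal barcodes passed no other class's marker rule, and 38 core barcodes were left without the deepest. The count of genes at least 2-fold higher in endothelial barcodes was 9 or 10 in both libraries under every alternative run. The count at least 2-fold higher in core, 1 of 10, was 0 with at least 2 marker UMIs, with means over barcodes, from 3-fold on and when scaled to other endothelial genes. It was 2 with at least 5 marker UMIs and from 1.5-fold on, and 8 without Mecom. With at least 2 different markers it was 5, also under TMM scaling or without the deepest barcode, 2 with means over barcodes and 0 when scaled to other endothelial genes. The count at least 2-fold lower, 0 of 10, was 2 after thinning and 3 with means over barcodes, and 0 under the others. Shares of all genes past 2-fold are given above only for the rule and for at least 2 different markers. Under the other alternatives the counts have no such share beside them and cannot be set against all genes. Mfsd2a, called higher in core, had a ratio of 0.933 after thinning, which left few UMIs. Scaling to other endothelial genes shifted every log2 ratio down by 0.25 over all barcodes of the rule and by 1.36 with at least 2 different markers, where TMM shifted it by 0.20. The cause of these changes was not tested. The settings that combine at least 2 different markers with another choice, the scaling to other endothelial genes and the removal of shared barcode sequences were chosen after seeing the data. No paired analysis was possible because each region has 1 library. Depth limits Mfsd2a, Ocln and Slc7a5 the most, with 5 to 35 endothelial UMIs per library.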
